A study of Mus musculus with 8 samples.

Results

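The membrane-type matrix metalloproteinases measured here are Mmp14, Mmp16, Mmp17, Mmp24 and Mmp25. They were taken by symbol from the array rows that the platform annotation pairs with a single gene, and make up 5 of the 22180 genes measured. Each has 1 such row. A further row that carries Mmp24 together with a second symbol was left out, and Mmp15, another gene of the family, is not analysed here. RNA came from 8 whole mammary tumors of 3 to 4 month old mice on a congenic FVB/NJ background, 1 Affymetrix array per tumor. All the mice carried the MMTV-PyMT transgene, in which polyoma middle T antigen drives mammary carcinoma, and floxed Mmp14 alleles, Mmp14(f/f). The 4 tumors of the conditional knockout group (cKO) also carried MMTV-Cre, whose promoter is active mainly in mammary epithelium, so that stromal cells of these tumors are not the intended target. The 4 tumors of the control group, littermates without the Cre transgene that the labels call wild type (WT), still held the floxed alleles. The groups thus differ in the Cre transgene as well as in the targeted gene. The comparison asks whether Mmp14 RNA was lower in cKO tumors and whether its relatives were higher.

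Membrane-type matrix metalloproteinases are zinc proteases held at the cell surface, where they cut collagen, other matrix proteins and membrane receptors close to the cell. They are made as inactive proenzymes with a recognition site for furin-like convertases, and many are active when they reach the surface. Mmp14 (MT1-MMP) cleaves fibrillar collagen and turns the secreted proenzyme of Mmp2 into its active form with the help of Timp2. In breast tumors it is made by stromal fibroblasts and endothelium as well as by carcinoma cells. Mmp14, Mmp16 (MT3-MMP) and Mmp24 (MT5-MMP) cross the membrane and end in a short cytoplasmic tail, whereas Mmp17 (MT4-MMP) and Mmp25 (MT6-MMP) are tied to it by a glycosylphosphatidylinositol anchor.

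The sequences just before the transcription start of the 3 members found in the RefSeq promoter table of GRCm38.p6 are shown because Sp1 and Egr1, which have been linked to Mmp14 transcription, are among the factors measured below. Each run is the 250 bases before the start, written 5′ to 3′ on the strand of the gene. Capitals mark the GC box GGGCGG, which Sp1 can bind, or its reverse complement.
Mmp14, chr14:54431348-54431597, plus strand: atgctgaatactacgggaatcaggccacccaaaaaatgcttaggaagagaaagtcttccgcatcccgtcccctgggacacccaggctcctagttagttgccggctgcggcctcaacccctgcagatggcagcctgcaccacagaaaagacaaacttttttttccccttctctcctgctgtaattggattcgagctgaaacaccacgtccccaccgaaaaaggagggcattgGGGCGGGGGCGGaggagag
Mmp24, chr2:155775092-155775341, plus strand: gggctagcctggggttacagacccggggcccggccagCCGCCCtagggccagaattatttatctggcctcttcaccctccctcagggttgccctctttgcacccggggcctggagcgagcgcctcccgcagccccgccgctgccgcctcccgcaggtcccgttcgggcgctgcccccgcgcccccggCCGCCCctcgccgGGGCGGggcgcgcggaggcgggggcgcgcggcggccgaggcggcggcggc
Mmp25, chr17:23645270-23645519, minus strand: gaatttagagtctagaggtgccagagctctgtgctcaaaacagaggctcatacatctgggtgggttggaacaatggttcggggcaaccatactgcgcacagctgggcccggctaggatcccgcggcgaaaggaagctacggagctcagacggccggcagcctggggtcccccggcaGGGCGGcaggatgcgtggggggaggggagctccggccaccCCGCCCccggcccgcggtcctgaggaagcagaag
The Mmp14 window held 2 GC boxes next to each other, whose first bases lie 19 and 13 bases before the start, and 1 match to the Egr1 motif GCGNGGGCG, which overlaps them. The Mmp24 window held 3 GC boxes and 1 Egr1 match outside them, and the Mmp25 window held 2 GC boxes and no Egr1 match. Of 32851 promoter windows of this length, 32.7% held a GC box and 4.7% an Egr1 match on either strand. The GC content was 55.2% for Mmp14, 79.2% for Mmp24 and 66% for Mmp25, against a median of 52.4% over all windows. These are matches of letters and were not tested as binding sites.

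Mmp14 signal was lower in every cKO tumor than in the lowest WT tumor. The log2 signal of its row was 8.86, 9.12, 9.31 and 9.17 in WT tumors 1 to 4 and 7.98, 7.74, 7.44 and 7.72 in cKO tumors 1 to 4. The highest cKO tumor was cKO 1 and the lowest was cKO 3, and the groups did not overlap. The 4 WT tumors averaged 9.12 ± 0.19 and the 4 cKO tumors 7.72 ± 0.22 (mean ± SD, n = 4 each), a difference of −1.40 (SE 0.13, 95% interval −1.70 to −1.09). The signal in cKO tumors was therefore 38% of that in WT tumors (95% interval 30.8% to 46.9%), with an adjusted p of 0.0444 from limma over 23521 rows. An exact two-sided permutation test gave p = 0.0286, the smallest that 4 against 4 tumors allow. In the same comparison 2 rows, or 0.0085%, passed the adjusted threshold of 0.05, and in 5.42% of rows the groups did not overlap (1.73% lower in cKO and 3.68% higher). Mmp14 had the smallest p of all rows, while 34 rows had a more negative difference.

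Within the groups Mmp14 had a residual SD of 0.21, larger than in 65.2% of the 1863 rows with a mean signal within 0.5 of its own, whose median was 0.17. The size of the difference depended little on any 1 tumor, but the call did. With 1 tumor left out the difference stayed between −1.48 and −1.30, and limma's adjusted p ran from 0.0429 to 0.211, below the threshold without cKO 1 or without cKO 3 and above it without any of the other 6. The labels number the arrays from 1 to 8, and a cut after array 4 was chosen here as a further division. Arrays 1 to 4 and arrays 5 to 8 each held 2 tumors of either group. For Mmp14 the difference was −1.13 in the lower-numbered set and −1.66 in the higher-numbered set. When this division entered limma's model as a block, the adjusted p became 0.0708. Where the probes of this row lie on the gene, inside or outside the floxed exons, is not known from the labels, so the signal left in cKO tumors does not measure the extent of deletion. In whole tumors, fewer cells that make Mmp14, less Mmp14 RNA per cell and a transcript without the probed exons cannot be told apart.

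**Figure D1:**
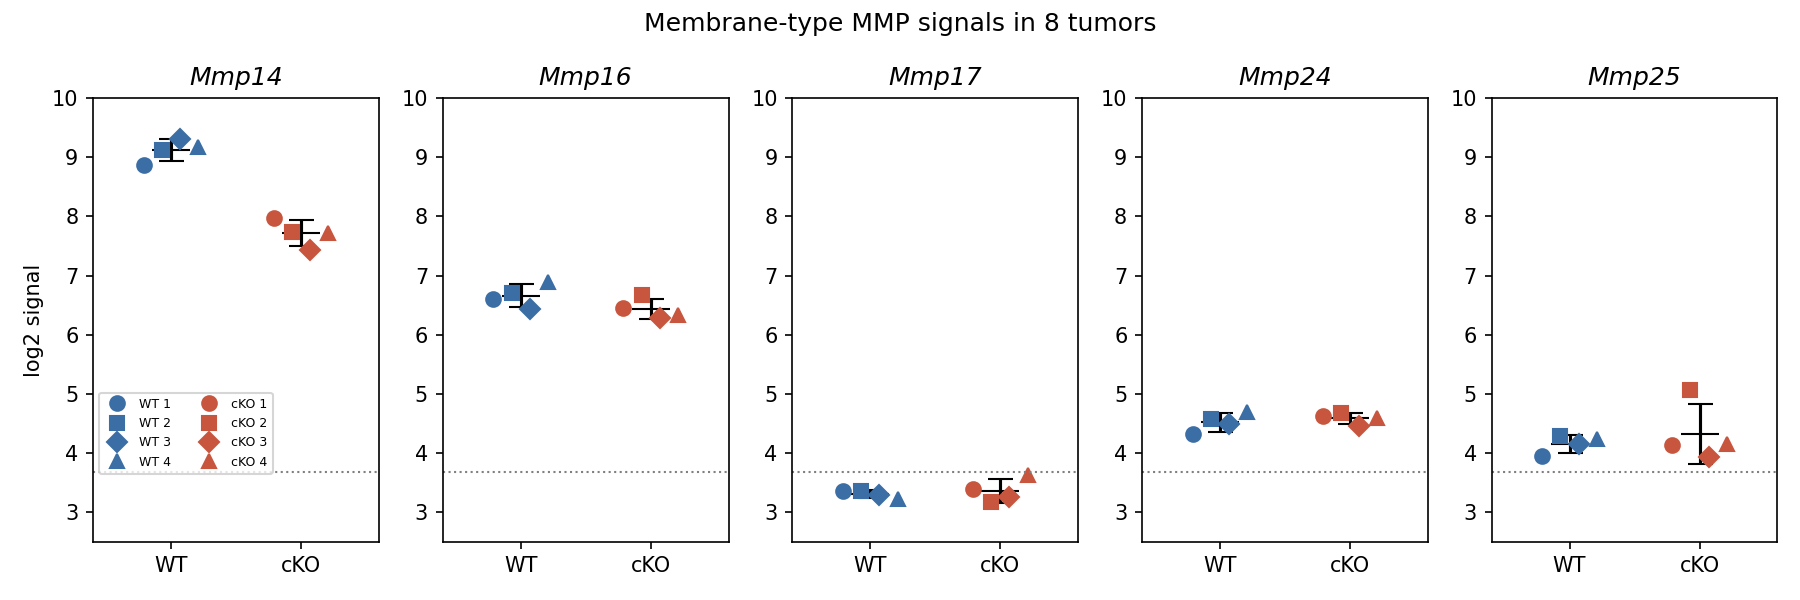
Log2 signal of each of the 5 genes (y axis) in the 4 WT tumors (blue) and the 4 cKO tumors (red), 1 symbol shape per replicate number, with bars for the mean and SD of each group and a dotted line at the mean of the 8 array medians (3.68). Mmp14 lies between 8.86 and 9.31 in WT and between 7.44 and 7.98 in cKO, while the groups overlap for the other 4 genes.

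Among the relatives, Mmp16, a membrane-spanning protease that can also activate Mmp2, had the brightest row after Mmp14 relative to the array median of 3.68. Its log2 signal was 6.61, 6.71, 6.43 and 6.89 in WT tumors 1 to 4 and 6.45, 6.67, 6.28 and 6.33 in cKO tumors 1 to 4. The groups overlapped, with WT 4 highest and cKO 3 lowest, and 2 cKO tumors lay below all WT tumors. The 4 WT tumors averaged 6.66 ± 0.19 and the 4 cKO tumors 6.43 ± 0.17 (mean ± SD, n = 4 each), a difference of −0.23 (SE 0.12), with limma's adjusted p at 0.597 and an exact permutation p of 0.143. The 95% interval of this fit ran from 70.3% to 103% of the WT signal. Arrays 1 to 4 gave −0.10 and arrays 5 to 8 gave −0.36.

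Mmp24 is a membrane-spanning relative known best from the nervous system. Its log2 signal was 4.32, 4.57, 4.49 and 4.70 in WT tumors 1 to 4 and 4.62, 4.68, 4.47 and 4.60 in cKO tumors 1 to 4. All 4 cKO tumors lay within the WT range. The 4 WT tumors averaged 4.52 ± 0.16 and the 4 cKO tumors 4.59 ± 0.09 (mean ± SD, n = 4 each), a difference of 0.07 (SE 0.10, limma adjusted p 0.857, exact permutation p 0.457). Within arrays 1 to 4 the difference was 0.20 and within arrays 5 to 8 it was −0.06. Mmp24 had the smallest residual SD of the 5 genes, 0.13 against a median of 0.22 in 2378 rows of like signal.

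The anchored relatives gave low signals. Mmp17, reported in breast cancer cells and in macrophages, had log2 signals of 3.36, 3.35, 3.29 and 3.22 in WT tumors 1 to 4 and 3.39, 3.17, 3.27 and 3.63 in cKO tumors 1 to 4. All 8 values lay below the array median of 3.68, so this row was not shown to be above background in any tumor. The cKO tumors held both the highest value, in cKO 4, and the lowest, in cKO 2. The difference was 0.06 (SE 0.11, limma adjusted p 0.894, exact permutation p 0.686), and −0.029 without cKO 4. Arrays 1 to 4 gave −0.08 and arrays 5 to 8 gave 0.19.

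Mmp25, known as leukolysin from its discovery in leukocytes and most abundant in neutrophils, had log2 signals of 3.95, 4.29, 4.15 and 4.24 in WT tumors 1 to 4 and 4.13, 5.07, 3.94 and 4.16 in cKO tumors 1 to 4. Tumor cKO 2 stood above all others, and the remaining 7 lay between 3.94 and 4.29. The 4 WT tumors averaged 4.16 ± 0.15 and the 4 cKO tumors 4.32 ± 0.51 (mean ± SD, n = 4 each), a difference of 0.16 (SE 0.23, limma adjusted p 0.852, exact permutation p 0.829). That value rested on cKO 2, and without that tumor the difference was −0.086. Arrays 1 to 4, which hold cKO 2, gave 0.48 and arrays 5 to 8 gave −0.15. The residual SD of 0.38 was larger than in 85.8% of 2798 rows of like signal.

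None of the 4 relatives analysed, which do not include Mmp15, was higher in cKO tumors beyond the spread between tumors. None of the 4 passed limma's adjusted threshold, none had an unadjusted p below 0.05, where 9.68% of all rows did (5.54% higher and 4.14% lower), and in none were the groups separate. The upper ends of the 95% intervals were 103% of the WT signal for Mmp16, 123% for Mmp17, 122.5% for Mmp24 and 160% for Mmp25. In this fit of all 8 tumors without covariates, larger increases in signal lay outside the intervals. Leaving out 1 tumor moved these ends to between 97.8% and 109% for Mmp16, 113% and 129% for Mmp17, 117% and 128% for Mmp24 and 112% and 176% for Mmp25, with the 112% coming from the fit without cKO 2. For rows as dim as Mmp17, Mmp24 and Mmp25, a signal near background understates a change in RNA, so these bounds apply to the signal and not to the transcript. The order of the tumors differed between the genes. In cKO 3, which had the least Mmp14, Mmp16 and Mmp25 were also at their lowest of the 8 tumors, Mmp24 was at 4.47 and Mmp17 at 3.27. A relation between Mmp14 and a relative across tumors within the groups was not tested.

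**Figure D2:**
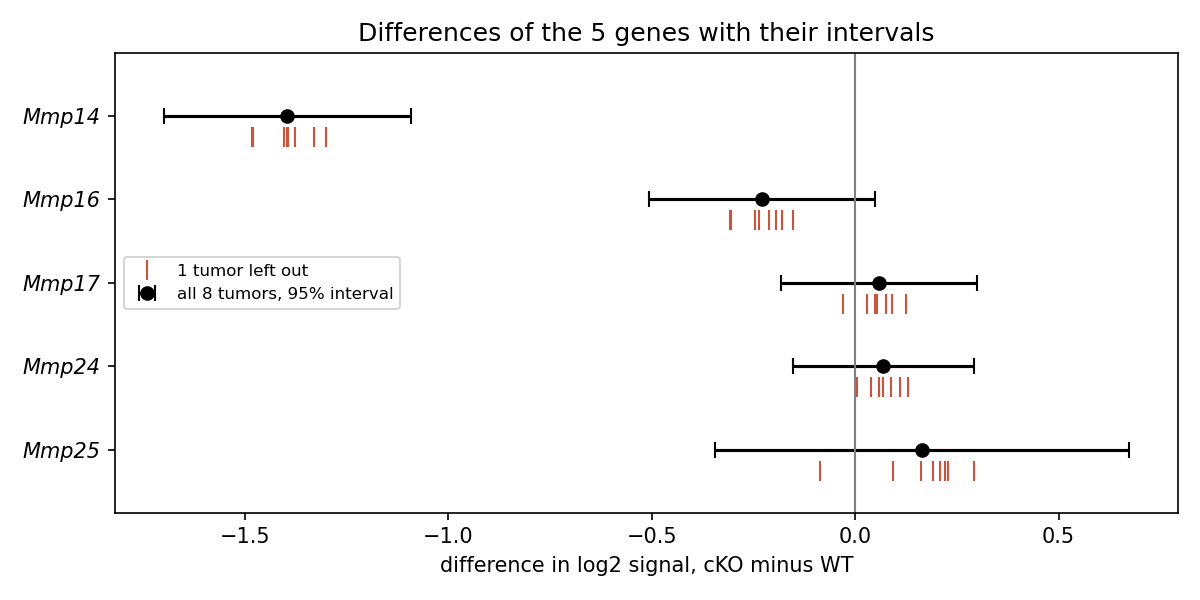
Difference in log2 signal between cKO and WT tumors (x axis) for each of the 5 genes, as a point with its 95% interval from limma, and red ticks for the differences with 1 tumor left out. The interval of Mmp14 runs from −1.70 to −1.09, and those of the other 4 genes include 0.

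Cell type markers were set beside the members, since all 5 genes are made by more than 1 cell type. The tissue label held, with all 10 luminal epithelial markers at a mean of at least 5. Markers of fibroblasts, a known source of Mmp14, were lower in cKO for 10 of 10 measured genes, where 43.5% of all rows were lower. None passed limma's adjusted threshold, and the differences ran from −0.03 for Dpt to −1.36 for Col1a1. The mean log2 signal of these markers lay between 7.12 and 7.76 in WT tumors and between 5.35 and 7.73 in cKO tumors. Of these genes, Fap and Thy1 had a mean below 5. The fibroblast mean of cKO tumors 1 to 4 was 7.20, 6.42, 5.35 and 7.73, so that cKO 1 and cKO 4 lay within the WT range. Mmp14 in the same tumors was at 7.98, 7.74, 7.44 and 7.72. The lowest tumor in both was cKO 3. With the fibroblast mean as a covariate the Mmp14 difference was −1.28 (SE 0.15, limma adjusted p 0.0805). Endothelial markers lay between 5.98 and 6.40 in WT and between 5.57 and 6.32 in cKO. They were lower in 8 of 8 genes, with none past limma's adjusted threshold, and Tek and Vwf were below 5. The part of endothelial cells in the Mmp14 result was not tested, and that of fibroblasts was not tested beyond the covariate fit.

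Luminal markers lay between 9.65 and 10.1 in WT tumors and between 9.38 and 9.87 in cKO tumors, lower in cKO for 8 of 10 genes and with none past limma's adjusted threshold. Tumor WT 4 was highest in both these markers and Mmp16, and cKO 3 and cKO 4 were lowest in both. With the luminal mean as a covariate the Mmp16 difference was −0.05 (SE 0.11), the Mmp14 difference was −1.40 (SE 0.17, limma adjusted p 0.192), the Mmp17 difference was −0.059 and the Mmp25 difference was 0.41. Neutrophil markers, set beside Mmp25, lay between 3.03 and 3.35 in WT and between 3.14 and 3.32 in cKO, higher in cKO for 4 of 8 genes. Of the 8, only S100a8 had a mean of at least 5, and Ly6g, Csf3r, Cxcr2 and the others were below it. In cKO 2, where Mmp25 was at 5.07, the neutrophil mean of 3.32 lay within the WT range, while S100a8 was at 5.74, its highest of the 8 tumors, next to 5.60 in WT 1. The part of neutrophils in the Mmp25 value was not tested. Nerve and Schwann cell markers, set beside Mmp24, lay between 4.56 and 5.04 in WT and between 4.69 and 5.08 in cKO, higher in cKO for 4 of 5 genes. Of these only Sox10, also a gene of mammary epithelium, had a mean of at least 5, and their part in the Mmp24 values was not tested. Macrophage markers, set beside Mmp17, lay between 6.06 and 6.58 in WT and between 6.66 and 6.95 in cKO. They were higher in 9 of 10 genes, with none past limma's adjusted threshold. This was the only marker list whose mean was higher in every cKO tumor than in every WT tumor. The part of macrophages in the Mmp17 and Mmp14 values was not tested. The covariate fits were chosen after the data were seen.

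**Figure D3:**
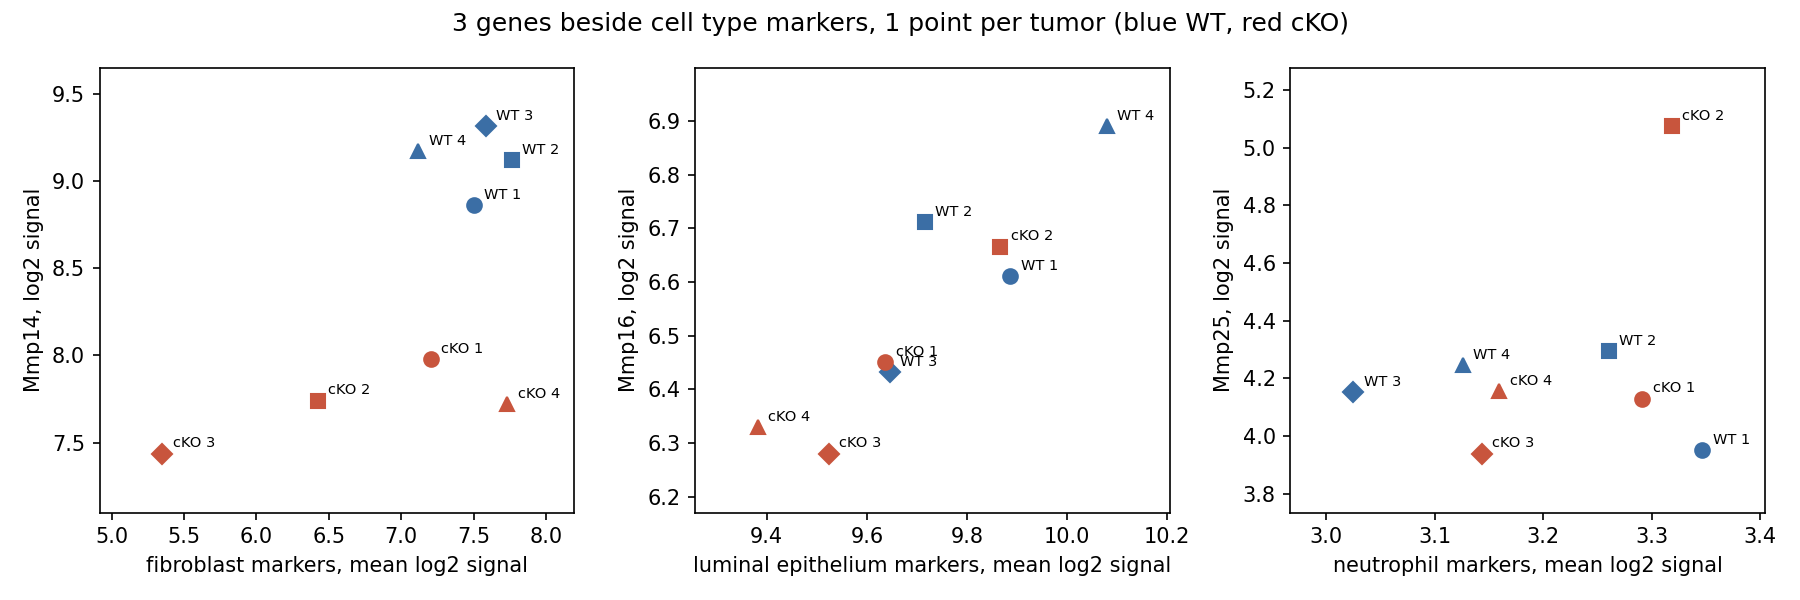
Log2 signal of Mmp14, Mmp16 and Mmp25 (y axes) against the mean log2 signal of fibroblast, luminal epithelial and neutrophil markers (x axes), 1 point per tumor in blue for WT and red for cKO. Among cKO tumors the fibroblast mean is lowest in cKO 3 (5.35) and highest in cKO 4 (7.73), with Mmp14 at 7.44 and 7.72. The part of fibroblasts in the Mmp14 values was not tested beyond a covariate fit.

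The genes beside Mmp14 on chromosome 14 showed no difference past the threshold. Of the 3 nearest measured genes on each side, none of the 6 passed limma's adjusted threshold or an unadjusted p of 0.05. Mrpl52, a mitochondrial ribosomal protein and the nearest on the side where Mmp14 starts, differed by 0.0040 (SE 0.11) and had an interval of −0.24 to 0.25. The amino acid transporter Slc7a7 differed by −0.0067 and Oxa1l, which inserts proteins into the mitochondrial inner membrane, by −0.04. On the other side the receptor Lrp10 differed by −0.21 (SE 0.12, adjusted p 0.605), the small GTPase Rem2 by 0.11 and the arginine methyltransferase Prmt5 by 0.16. The lower end of the interval was −0.55 for Slc7a7, the most negative of the 6, and the upper end for Mmp14 was −1.09.

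The enzymes and regulators around the membrane-type proteases were described from lists chosen for their known roles, with earlier results of these data known. The counts on these lists are therefore descriptions and not tests. No gene on the lists passed limma's adjusted threshold. The proprotein convertases, which remove the propeptide of membrane-type proteases, were lower in cKO for 5 of 5 genes, with a median difference of −0.22 against 0.02 over all rows tested, of which 43.5% were lower. At an unadjusted p below 0.05, 2 of 5 were lower, where 4.14% of all rows were. Pcsk5, a secreted and membrane-bound convertase, had log2 signals of 5.84, 5.32, 5.15 and 5.47 in WT tumors 1 to 4 and 4.99, 4.90, 4.43 and 4.87 in cKO tumors 1 to 4. The groups did not overlap, and the difference was −0.65 (SE 0.17, adjusted p 0.287). Pcsk7 differed by −0.30 (SE 0.11, adjusted p 0.446), Furin, the convertase best known for Mmp14, by −0.22 (SE 0.15) and Pcsk4, known from germ cells, by −0.15. Pcsk6, the remaining gene of the list, differed by −0.09 (SE 0.34), with an SD of 0.81 among cKO tumors. Leaving out 1 tumor moved Furin and Pcsk4 by over 1.5 times. Furin was at −0.10 without cKO 2. Pcsk4 was at −0.071 without WT 1, −0.057 without WT 3 or cKO 4, −0.24 without cKO 1 and −0.27 without WT 2.

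Genes listed as inhibitors of these proteases were lower in 7 of 9 genes, with a median of −0.15, and none had an unadjusted p below 0.05. Timp4 and Spock3, both counted as lower, had group means below the array median of 3.68. Bst2, an interferon-induced membrane protein that binds Mmp14, differed by −0.81 (SE 0.51) with an SD of 0.97 among WT tumors. The tissue inhibitors Timp1, Timp3 and Timp4 differed by −0.44, −0.41 and −0.11. All 4 values moved by over 1.5 times with 1 tumor left out. Bst2 was at −1.23 without WT 2, and Timp1 was at −0.20 without cKO 3 and −0.66 without cKO 1. Timp3 was at −0.21 without cKO 3, −0.24 without cKO 4, −0.27 without WT 4 and −0.71 without cKO 2, and Timp4 at −0.070 without WT 4 and −0.066 without cKO 1. Of the proenzymes that Mmp14 cleaves, the gelatinase Mmp2 differed by −1.24 (SE 0.43, adjusted p 0.422), and by −0.82 without cKO 3. Its log2 signal was 8.66, 8.30, 8.16 and 8.34 in WT tumors 1 to 4 and 7.57, 6.83, 5.85 and 8.23 in cKO tumors 1 to 4. The fibroblast marker mean of the same cKO tumors was 7.20, 6.42, 5.35 and 7.73, in the same order of tumors, and its part in the Mmp2 value was not tested. The collagenase Mmp13 differed by 1.52 (SE 0.47, adjusted p 0.364), and neutrophil collagenase Mmp8, a dim row with means of 2.82 and 2.95, by 0.14. For Mmp13 the log2 signal was 6.27, 5.86, 4.48 and 4.94 in WT tumors 1 to 4 and 6.62, 7.95, 6.02 and 7.02 in cKO tumors 1 to 4, so that the groups overlapped only between cKO 3 and WT 1. All 17 measured matrix metalloproteinases outside the membrane-type members had a median difference of −0.0076, with 8 higher and 9 lower. Of the 17, 2 had an unadjusted p below 0.05 by limma, where 9.68% of all rows did. These were Mmp13, higher, and Mmp2, lower. Stromelysin Mmp10 differed by 0.42 (SE 0.20), and by 0.22 without cKO 2.

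Cell surface substrates and partners of Mmp14 were lower in 19 of 22 genes, or in 18 after a further quantile normalization, with a median of −0.14, where 43.5% of all rows were lower. At an unadjusted p below 0.05, 2 of the 22 were lower and none higher, against 4.14% and 5.54% of all rows. Sema4d, a semaphorin shed from the cell surface, had log2 signals of 7.03, 6.87, 6.96 and 6.86 in WT tumors 1 to 4 and 6.54, 6.73, 6.67 and 6.81 in cKO tumors 1 to 4, without overlap. Its difference was −0.24 (SE 0.09, adjusted p 0.439). The integrin chain Itgav differed by −0.39 (SE 0.14), the receptor Lrp1 by −0.46 (−0.30 without cKO 3) and the kinase-like receptor Ptk7 by −0.19. Genes of the trafficking of Mmp14 and of its cytoplasmic tail were lower in 10 of 17 genes, with a median of −0.01. Of the 17, 1 had an unadjusted p below 0.05, where 9.68% of all rows did. This was the podosome scaffold Sh3pxd2b, at −0.91 (SE 0.40, limma adjusted p 0.509). The dynamin Dnm2 differed by −0.20, the vesicle protein Vamp7 by 0.30 (0.16 without cKO 1) and the kinesin Kif5b by −0.15. Among transcription factors linked to Mmp14, 5 of 7 were lower, with a median of −0.10, and 2 had an unadjusted p below 0.05, where 9.68% of all rows did. These were Tcf7l2, which acts with beta-catenin, at −0.63 (SE 0.19, adjusted p 0.352) and the hypoxia factor Epas1 at −0.49 (SE 0.16, adjusted p 0.403). Sox4 differed by 0.31, and by 0.18 without cKO 3 and 0.19 without WT 3. Egr1 differed by −0.46 (SE 0.30), and by −0.30 without WT 4 and −0.70 without cKO 2. Sp1, whose GC box stands before Mmp14, was named after its value was seen and differed by −0.0092 (SE 0.09).

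**Figure D4:**
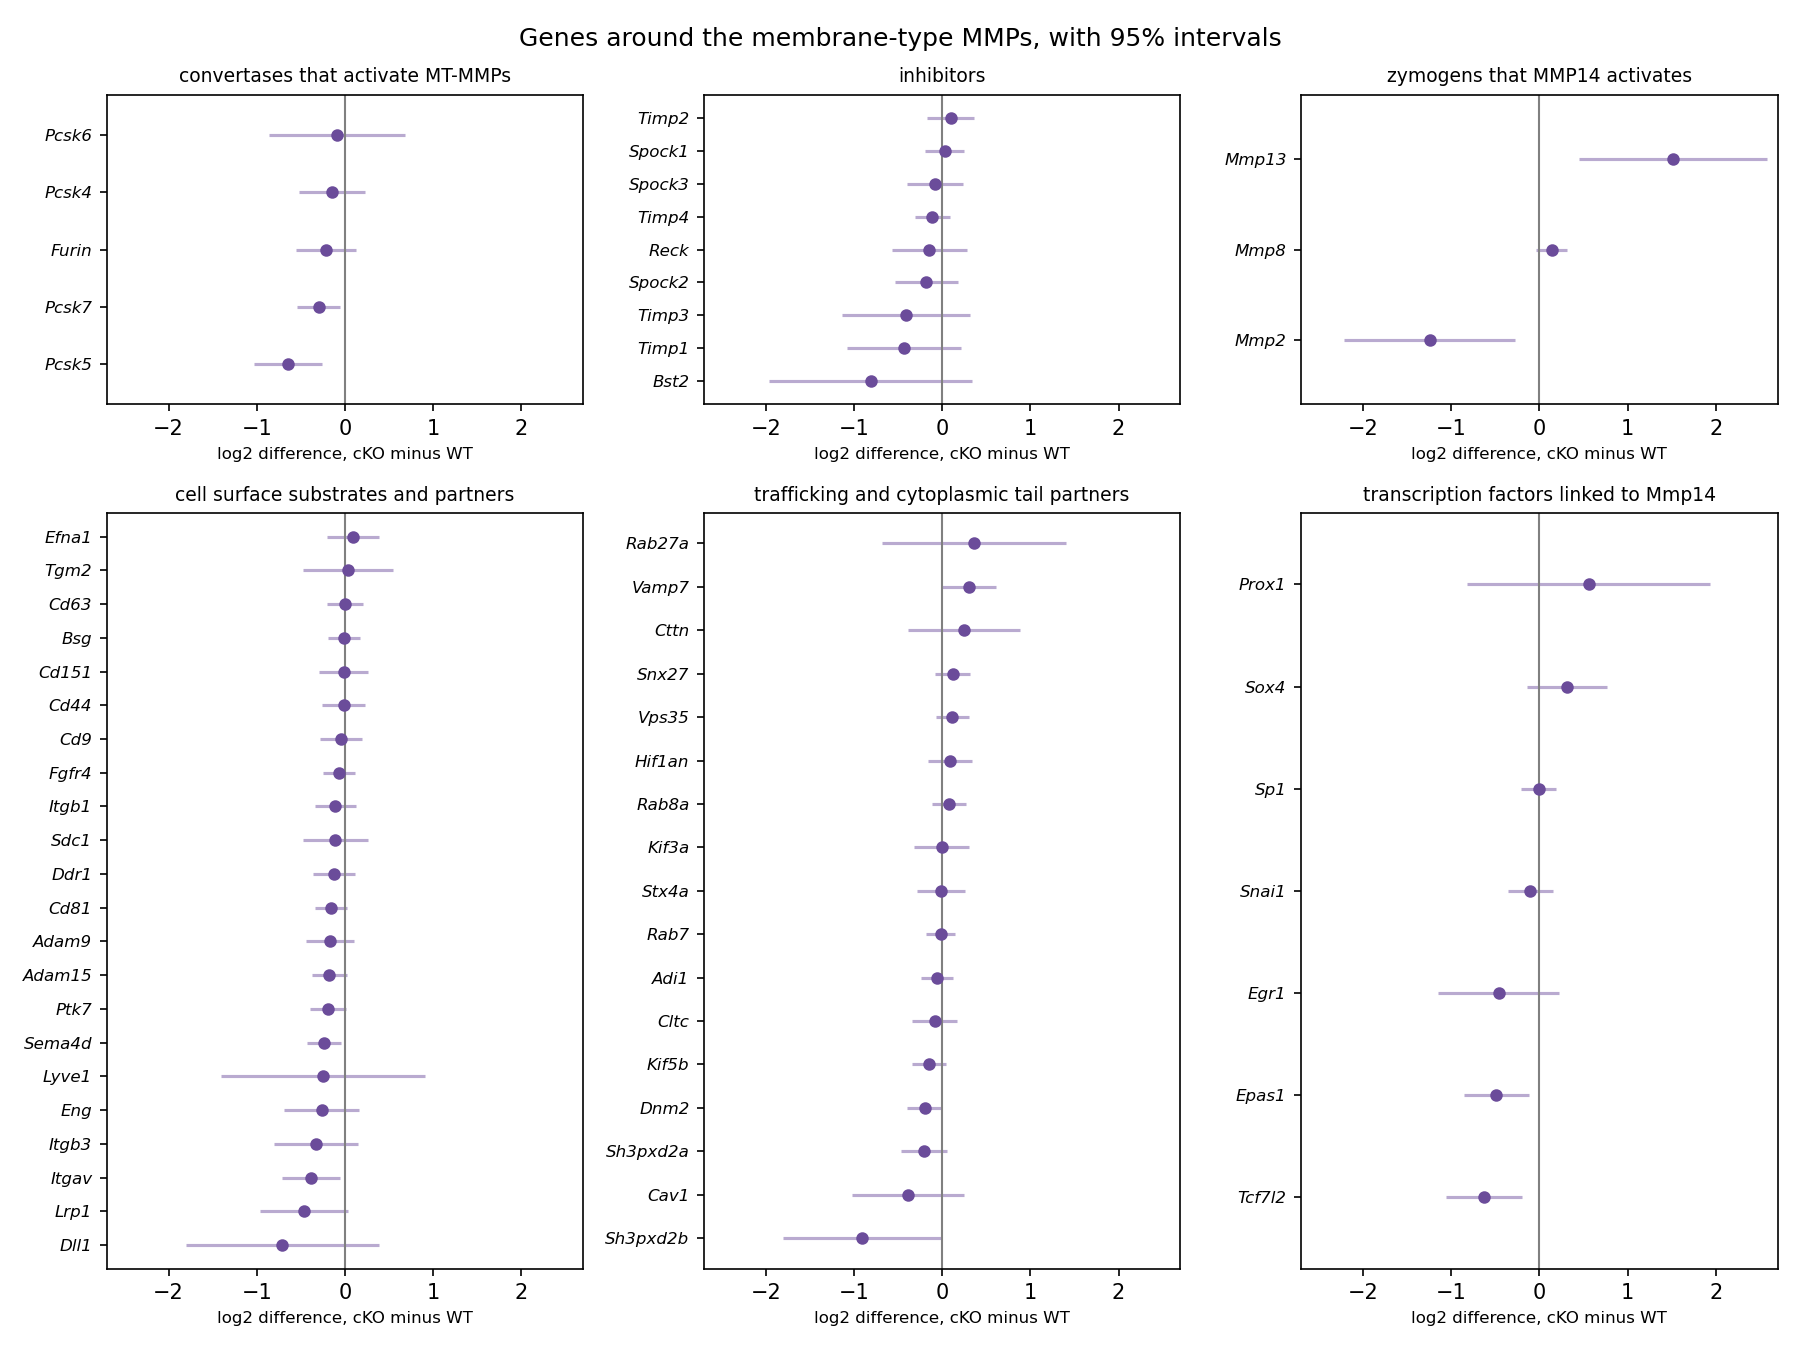
Difference in log2 signal between cKO and WT tumors (x axis) with 95% intervals from limma, for the measured genes of 6 lists around the membrane-type proteases (y axes), 1 panel per list. All 5 listed convertases lie below 0, with intervals that include 0 for Furin, Pcsk4 and Pcsk6. Mmp13 at 1.52 and Mmp2 at −1.24 lie farthest from 0.

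Genes whose signal followed that of a member most closely were found by Pearson's r over the 8 tumors, after removing each group's mean, among 9795 rows with a mean of at least 5. For Mmp14 these were Tatdn1, of a family of deoxyribonucleases (r = 0.988), Mri1, an enzyme of methionine salvage (0.964), and Atp5g3, a subunit of ATP synthase (0.961). Their own differences between cKO and WT tumors were −0.10, −0.15 and 0.08, none past the threshold. For Mmp16 they were the annexin Anxa4 (0.976), the glycolytic enzyme Pgam1 (0.969) and the ribosomal protein gene Rpl3 (0.968). For Mmp17 they were the plasminogen activator Plat (0.986), Rgl1 (0.985) and Fam126a (0.981), and for Mmp24 Nipsnap3b (0.969), Dhrs1 (0.959) and Ntmt1 (0.949). For Mmp25 they were the splicing factor Srsf11 (0.986), Trim35 (0.978) and the co-chaperone Bag1 (0.970), each highest in cKO 2, as Mmp25 was. Across all 9795 rows the highest r of a row with any other had a median of 0.982, so likeness of this degree was usual in 8 tumors.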

How the data were processed

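Total RNA (400 ng) from 8 tumors was labelled for Affymetrix mouse arrays, per the labels' protocols. Each deposited value is a log2 signal of 1 row in 1 tumor, made by the authors with RMA (background correction, normalization between arrays and probe summary), per the submitters' processing notes. Its version and settings were not given in the sources used here. Values lay between 0.853 and 12.9, and array medians between 3.64 and 3.71. Of 41345 rows, 23521 had 1 symbol, 1814 several, and 16010 are unnamed here. Symbols of 23328 rows came by gene identifier from the RefSeq table of GRCm38.p6.

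All rows with 1 symbol entered 1 fit of cKO minus WT without covariates (R 4.3.3, package limma 3.58.1, lmFit and eBayes, two-sided) and adjusted by Benjamini-Hochberg, with a threshold of 0.05. The fit was tested on simulated data. Single values were tested by exact permutation of the tumors. A gene with several rows was shown by its brightest. The named genes are the 5 members, up to 4 genes per list with the smallest p, 3 genes most like each member and 3 measured neighbours on each side of Mmp14. No detection call was used, and 8 arrays limit the precision. The labels call the tumors biological replicates and do not say that each came from a different mouse. The p-values set the group difference against the spread between these tumors and take the tumors as independent. If tumors shared a mouse, these p-values could be too small. The members and lists were chosen with earlier results of these data known.

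Titles give both groups the replicate numbers 1 to 4. The labels do not say what these numbers share, so they were not taken as pairs in the main fit. In a separate check, deviations of same-numbered tumors correlated at −0.02, −0.20, 0.29 and −0.24 over 10186 rows. Alternatives were further normalizations, a filter on dim rows, other variance models, blocks, all rows, single tumors left out and marker covariates.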

Additional observations from a re-analysis of the deposited data

Results flagged for a closer look

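Among 124 groups of 4 tumors that were checked (members, named genes and marker means), 4 held a tumor far from the other 3, and chance alone gives about 1 in 20 groups. The lowest WT tumor of Pcsk7 was at 6.73 and the lowest WT tumor of Srsf11 at 8.43. The highest cKO tumor of Rpl3 was at 7.57, in cKO 2. The nerve and Schwann cell marker mean was highest among WT tumors at 5.04, in WT 2. No value of the 5 members met this rule, Mmp25 in cKO 2 included.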

How the results depend on the processing

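Mmp14 kept its direction in all 19 alternatives (−1.48 to −1.28) but was above the adjusted threshold in 11. Its difference was −1.40 with the replicate block (limma adjusted p 0.353) and with the array numbers as a block, −1.28 with the fibroblast, −1.40 with the luminal and −1.38 with the neutrophil covariate, and −1.48 to −1.30 with 1 tumor left out. No relative analysed passed in any alternative. Mmp16 kept its sign in 19 and Mmp24 in 18. Mmp17 changed sign in 2, to −0.029 without cKO 4 and −0.059 with the luminal covariate, and ran from −0.029 to 0.12 with 1 tumor left out. Mmp25 ran from −0.086 to 0.29 with 1 tumor left out, and was negative only without cKO 2. The filter at a mean of 5 gave Mmp17, Mmp24 and Mmp25 no value, and no other row could stand for any member. The number of rows past the threshold was 0 with the replicate block (1898 at an unadjusted p below 0.05), 1 with the array numbers as a block, 8 over all rows of the table, and from 0 (at least 1597 at an unadjusted p below 0.05) to 3 with 1 tumor left out. It was 0 with the fibroblast covariate (2412 unadjusted), 0 with the luminal covariate (1787) and 1 with the neutrophil covariate. The blocks, the covariates and the smaller sets leave fewer degrees of freedom; otherwise the cause was not tested. With the replicate block no call changed other than those of the 2 rows that passed. Low signal limits what Mmp17, Mmp24 and Mmp25 can show.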
